A study of Mus musculus with 8 samples.

Results

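The granins and the proteins that process prohormones in secretory granules were followed in pancreatic islets of wild type mice and of knockout mice that lack 1 gene. Of 10 genes (Chga, Chgb, Scg2, Scg3, Scg5, Ptprn, Ptprn2, Pcsk1, Pcsk2 and Cpe), 9 had a probe set under their current or an older symbol, and no probe set was named for Pcsk2 in the annotation used here. They held 13 of the 12488 probe sets of the Affymetrix array MG-U74A and 1 of the 12477 of MG-U74B. Total islet RNA was hybridised to both array types, with 2 replicates of each genotype on each, which the labels call biological, so 8 arrays were compared within their type. The labels give no strain, age, sex or pooling of animals, and no treatment. Whether the replicates are separate RNA samples was not tested.

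Granins are acidic proteins stored with peptide hormones in the dense-core granules of endocrine cells and neurons, where they aggregate and help to load the granule. Hormones enter the granule as inactive precursors. Prohormone convertases cut them at pairs of basic residues and carboxypeptidase E then removes those residues, as in the making of insulin from proinsulin in beta cells. The membrane proteins encoded by Ptprn and Ptprn2 span the granule and are known as autoantigens of type 1 diabetes.

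The 250 bases before the RefSeq start of 4 of these genes are shown. Each window holds the cyclic AMP response element TGACGTCA or a form with 1 base changed (TGACGTNA, in capitals). All 4 transcripts fell on MG-U74A, as did those of Scg3, Scg5 and Ptprn, whose windows hold neither. Sequences are from RefSeq on GRCm38.p6, 5′ to 3′ on the gene's strand.
Chga, chr12:102554691-102554940, plus strand: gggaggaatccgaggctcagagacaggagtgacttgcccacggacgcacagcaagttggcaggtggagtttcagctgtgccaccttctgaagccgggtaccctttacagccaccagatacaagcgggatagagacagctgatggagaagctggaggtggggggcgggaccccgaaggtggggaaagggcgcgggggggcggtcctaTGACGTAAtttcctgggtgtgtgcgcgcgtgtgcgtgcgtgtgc
Chgb, chr2:132781392-132781641, plus strand: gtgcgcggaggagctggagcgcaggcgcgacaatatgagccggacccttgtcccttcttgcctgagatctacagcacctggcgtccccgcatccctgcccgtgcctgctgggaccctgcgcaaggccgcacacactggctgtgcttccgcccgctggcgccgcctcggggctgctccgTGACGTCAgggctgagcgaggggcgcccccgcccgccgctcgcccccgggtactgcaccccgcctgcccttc
Scg2, chr1:79440027-79440276, minus strand: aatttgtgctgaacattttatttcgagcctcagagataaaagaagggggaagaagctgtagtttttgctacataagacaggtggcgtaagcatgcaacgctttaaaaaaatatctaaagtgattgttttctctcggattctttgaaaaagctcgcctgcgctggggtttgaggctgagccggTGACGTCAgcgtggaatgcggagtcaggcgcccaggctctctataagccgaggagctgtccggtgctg
Pcsk1, chr13:75089607-75089856, plus strand: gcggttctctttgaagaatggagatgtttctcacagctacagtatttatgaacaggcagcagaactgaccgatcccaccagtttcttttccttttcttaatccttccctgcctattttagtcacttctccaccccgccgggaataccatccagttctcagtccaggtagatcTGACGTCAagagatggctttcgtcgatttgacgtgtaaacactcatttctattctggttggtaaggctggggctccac

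Windows were found for 9 of the 10 genes, 1 each and 2 for Ptprn. Searched on both strands, TGACGTCA was in the windows of Chgb, Scg2 and Pcsk1, 3 of these 10 windows, against 1.55% of all 32851 windows of the same length. TGACGTNA, which includes TGACGTCA, was in 4 of 10 against 2.52% of all windows, the added gene being Chga. The shorter TGACG, part of both, was in 8 of 10 against 17.8% of all windows. A match describes letters in the window and is not evidence that a factor binds there.

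Intensities are those the authors deposited, on a linear scale, after 1 scale factor per array that changed no array by 0.01% or more. Changes are knockout minus wild type on the log2 scale after a constant of 10% of the arrays' trimmed mean was added to each value, with their standard error (n = 2 arrays a genotype). A gene fell or rose where limma's p, adjusted by the Benjamini-Hochberg method over all tested probe sets of the array type, was below 0.05. With several tested probe sets, the one with the highest mean stands for the gene.

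On MG-U74A 8 of 9 genes fell and 0 rose (also 0 at an unadjusted limma p under 0.05), where 30.2% of the 5707 genes tested in the same way fell. Of the 9, 7 fell by at least 1 log2 unit, against 10.3% of genes tested. Both knockout arrays lay below both wild type arrays for 8 of 9, against 45.3% of genes. Every probe set of these genes had a mean above the filter on low values, so none was left out of the test. The median change of the 9 was -1.67 and that of all tested genes -0.12, and 3.71% of tested genes had a change below the members' median. Counted by probe set, 12 of 13 fell, against 29.0% of tested probe sets. In RNA of whole islets, fewer endocrine cells and less RNA per cell cannot be told apart.

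**Figure D1:**
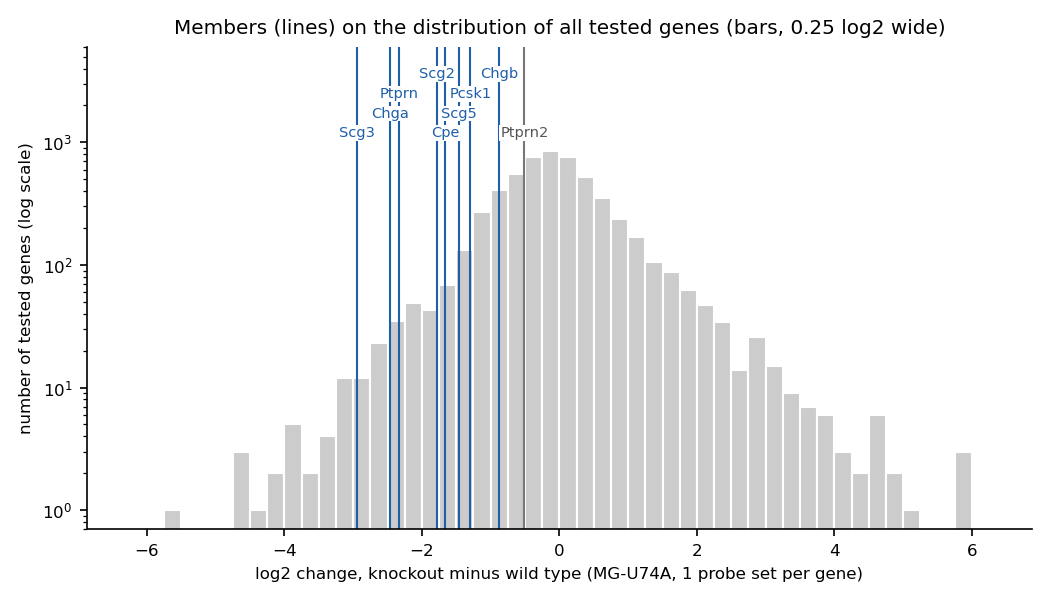
Distribution of the log2 change (x axis, knockout minus wild type) of the 5707 genes tested on MG-U74A (bars, number of genes on a log axis), with a line for each of the 9 genes (blue, fell; grey, Ptprn2, which did not pass). The lines lie between -2.95 (Scg3) and -0.51 (Ptprn2), left of the median of all genes at -0.12.

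Scg3 encodes secretogranin III, which binds chromogranin A and the cholesterol-rich granule membrane. Its probe set 162237_f_at read 3668 and 3684 on the wild type arrays and 436 and 475 on the knockout arrays. The knockout mean was 8.07-fold lower, a log2 change of -2.95 ± 0.05 (adjusted p = 9.54e-05), the largest on MG-U74A when each gene is taken by its brightest probe set. A second probe set, 104564_at, read 2367 and 2289 in wild type against 181 and 283 in knockout, a change of -3.22 ± 0.21 (adjusted p = 8.45e-04). Both probe sets of Scg3 separated the genotypes without overlap, and the knockout arrays differed from each other more than the wild type arrays did.

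Chga encodes chromogranin A, a precursor of peptides such as pancreastatin and vasostatin. Probe set 92422_at read 6042 and 6133 in wild type and 1139.8 and 1029 in knockout, 5.61-fold lower on average. The change of -2.46 ± 0.06 (adjusted p = 1.18e-04) had a 95% confidence interval of -2.63 to -2.30. On 162192_f_at Chga read 3044 and 2960.4 in wild type and 177 and 372 in knockout, a change of -3.42 ± 0.34 (adjusted p = 0.00267). The direction was shared by both probe sets, while the second had knockout arrays that differed 2.11-fold and an interval of -4.36 to -2.47.

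Scg2 encodes secretogranin II, the precursor of secretoneurin. It read 9131 and 9221 in wild type and 3099.8 and 2255 in knockout. The knockout arrays stood apart from each other by 1.37-fold, yet the lowest wild type array was 2.95-fold above the higher of them. Scg2 fell by 1.79 ± 0.16 (adjusted p = 0.00195).

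Chgb encodes chromogranin B, a granin abundant in beta and alpha cells. On 92841_f_at it read 12654 and 12697 in wild type and 6896 and 6895 in knockout, 1.84-fold lower, a change of -0.88 ± 0.03 (adjusted p = 1.98e-04). By brightest probe sets this was the smallest fall that passed in the group, with an interval of -0.95 to -0.80. The interval does not reach those of Scg2 (-2.23 to -1.34), Chga (92422_at) or Scg3 (-3.10 to -2.80), although the difference between genes was not itself tested. The probe set 92842_r_at, designed from the same sequence entry, read 546 and 534 in wild type and 249 and 163 in knockout. There Chgb fell by 1.31 ± 0.20 (adjusted p = 0.00826), and the interval of -1.87 to -0.76 overlaps that of Scg2. The suffixes _f and _r mark probe sets that can bind related sequences or were chosen under relaxed rules, and the brightest probe set of Chgb and of Scg3 carries _f.

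**Figure D2:**
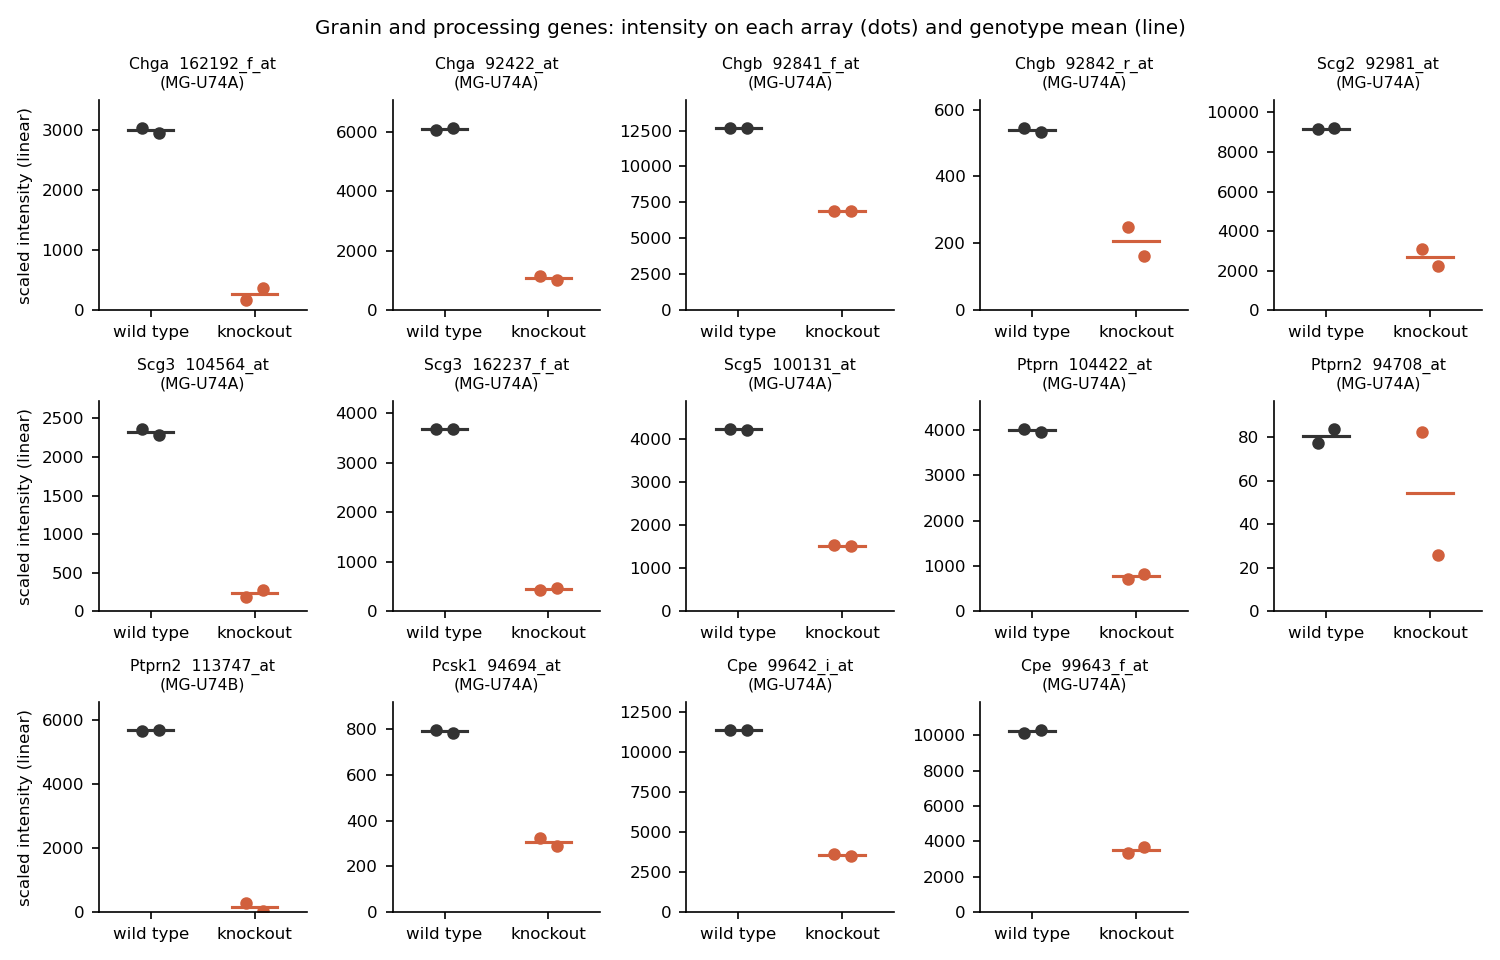
Scaled intensity (y axis, linear, from 0) of each of the 14 probe sets on each array (dots), with the mean of 2 arrays (line), for wild type (black) and knockout (orange). The genotypes overlap for Ptprn2 94708_at, where 1 knockout array reads 82.6 between the wild type values of 77.4 and 83.9, and do not overlap elsewhere.

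Scg5 encodes the chaperone 7B2, which binds the precursor of prohormone convertase 2 and keeps it inactive until it has reached the granule. It read 4232 and 4212 in wild type and 1528 and 1505 in knockout. Replicates of each genotype were within 1.02-fold of each other, and the genotypes did not overlap. The change was -1.46 ± 0.03 (2.78-fold, adjusted p = 1.05e-04). The enzyme that it serves, the product of Pcsk2, could not be set beside it.

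Pcsk1 encodes the convertase that makes the first cut of proinsulin. It read 796 and 781 in wild type and 323 and 290.3 in knockout, 2.57-fold lower. All knockout values lay below all wild type values, and Pcsk1 fell by 1.30 ± 0.07 (adjusted p = 6.61e-04, interval -1.50 to -1.09).

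Cpe encodes carboxypeptidase E, which trims the basic residues left by the convertases and also acts as a sorting receptor in granule formation. On 99642_i_at it read 11412 and 11363 in wild type and 3636 and 3511 in knockout, a change of -1.67 ± 0.03 (3.19-fold, adjusted p = 1.01e-04). On 99643_f_at, made from the same sequence entry, it read 10131 and 10306 against 3364 and 3707, a change of -1.53 ± 0.06 (adjusted p = 2.69e-04). The probe sets of Cpe differed little in level or change, and neither showed overlap between genotypes.

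Ptprn encodes IA-2, a tyrosine phosphatase-like protein of the granule membrane without known phosphatase activity. It read 4032 and 3959 in wild type and 725 and 819 in knockout, 5.18-fold lower. The change of -2.34 ± 0.07 (adjusted p = 1.85e-04) had an interval of -2.53 to -2.15, and the knockout arrays lay far below the wild type pair. That interval overlaps those of Chga (92422_at) and Scg2 and lies below those of Chgb, Scg5, Pcsk1 and Cpe, a difference between genes that was not itself tested.

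Ptprn2 encodes phogrin, the paralog of IA-2, and its probe sets on the array types gave unlike values. On MG-U74A, 94708_at read 77.4 and 83.9 in wild type and 82.6 and 26.0 in knockout, low on all 4 arrays. The change of -0.51 ± 0.42 did not pass (adjusted p = 0.361), with an interval of -1.66 to 0.64 that holds no change as well as a fall beyond 1 log2 unit. Without knockout replicate 2 its sign turned, to 0.027 (adjusted p = 0.891).

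On MG-U74B, 113747_at of Ptprn2 read 5679.8 and 5713 in wild type and 296 and 36.8 in knockout. Both knockout arrays were far below both wild type arrays, by at least 19.2-fold. The lower of them, 36.8, is under 62.5, the mean below which probe sets were not tested, so that no ratio between the knockout arrays is given. Ptprn2 fell by 5.35 ± 0.77 there (adjusted p = 0.0167), where 9.60% of the 5395 genes tested on that array type fell. The interval of -7.36 to -3.33 shows how little of the size is fixed by these arrays. The call ended with no filter on low values (adjusted p = 0.106), with no variance trend (0.0515), without wild type replicate 1 (0.0989) and without wild type replicate 2 (0.104). Without wild type replicate 1, 0 probe sets of MG-U74B fell and 1 rose by limma at this threshold, where 752 fell at an unadjusted p under 0.05. The same counts without wild type replicate 2 were 0, 1 and 719, so the loss of the Ptprn2 call was part of the loss of all falls on that array type.

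**Figure D3:**
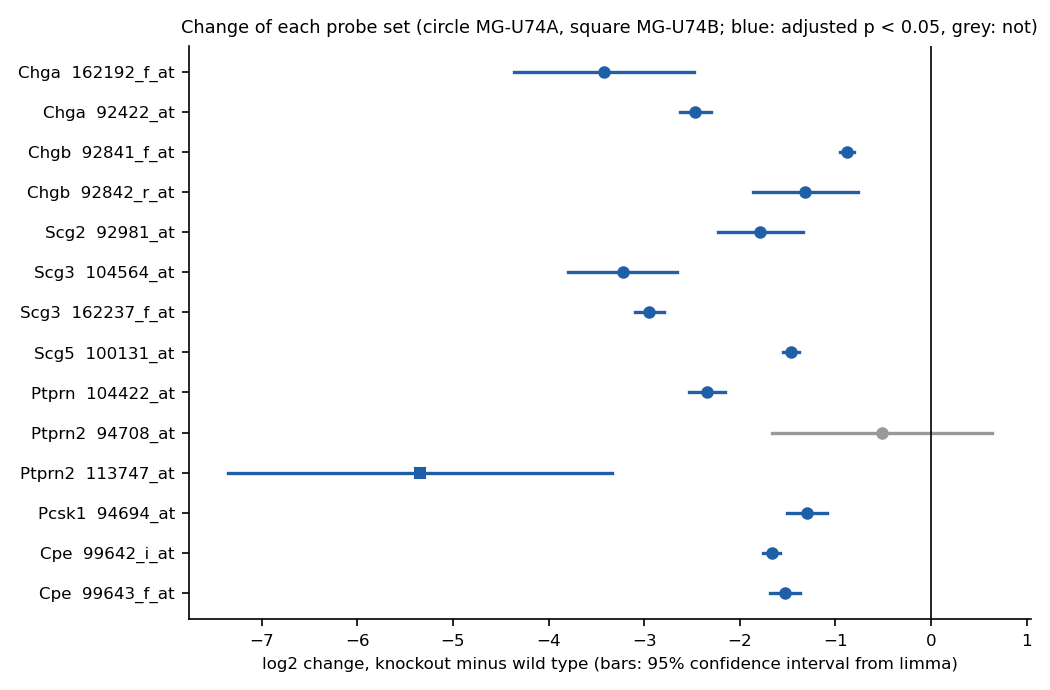
Log2 change (x axis, knockout minus wild type) of each probe set with its 95% confidence interval from limma (circles MG-U74A, square MG-U74B; blue, adjusted p below 0.05; grey, not). All points lie below 0, and the only interval that includes 0 is that of Ptprn2 94708_at (-1.66 to 0.64).

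Wild type arrays were close for all 12 probe sets that fell on MG-U74A, with the higher at most 1.03 times the lower. Knockout arrays of the same probe sets differed by 1.00-fold to 2.11-fold. For each of the 12, the lowest wild type value was at least 1.83 times the highest knockout value, and up to 8.08 times. Every one of the 12 kept its direction and its call under the 11 alternatives run, with changes between -3.91 and -0.87. In the 4 of these that leave out an array, 1 genotype has a single array and its spread is taken from the other genotype. The highest adjusted p among these was 0.0481, for Chgb 92842_r_at.

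**Figure D4:**
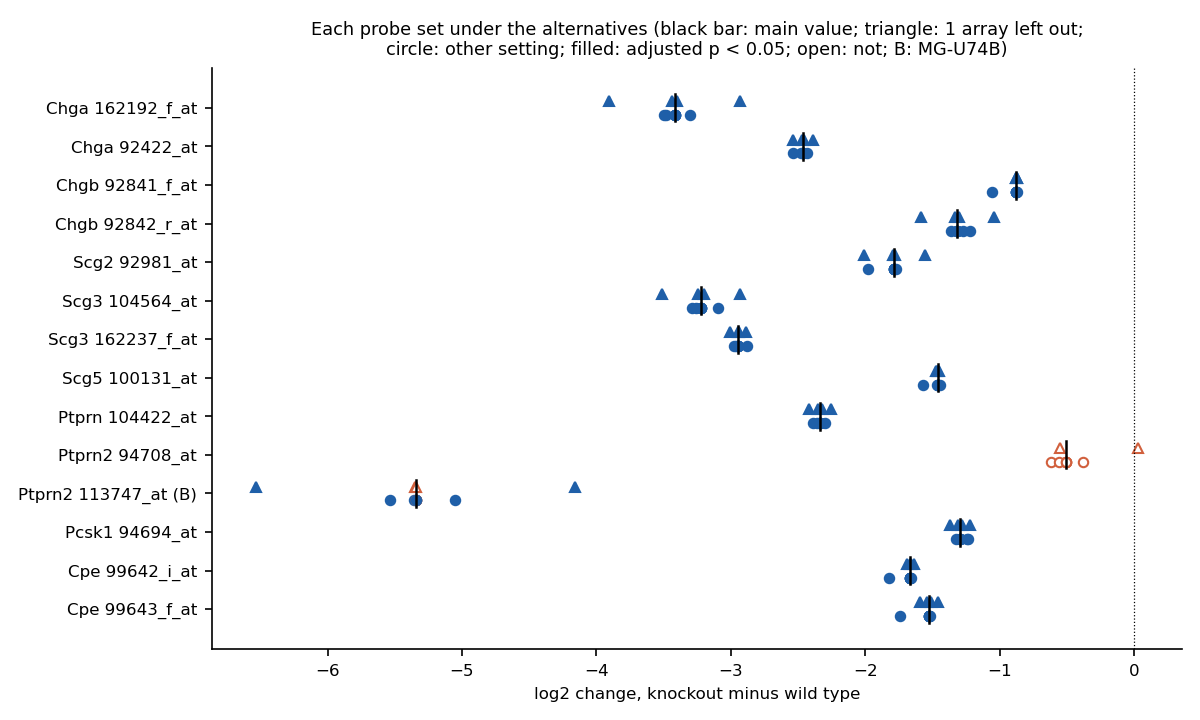
Log2 change (x axis) of each probe set under each alternative (triangles, 1 array left out; circles, other settings; filled, adjusted p below 0.05; open, not; black bars, main value). The 12 probe sets that fell on MG-U74A stay filled, while Ptprn2 94708_at (main value -0.51) is open throughout and its MG-U74B probe set (-5.35) is open under 4 settings.

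Other genes of the pathway, from lists covering related granule cargo, convertases, carboxypeptidases, peptide end modification and the granule membrane, had 29 tested genes on MG-U74A. Of these 22 fell, where 30.2% of all genes tested fell, and 2 rose, where 22.7% did. Their median change was -0.72. On MG-U74B 7 of 13 fell and 0 rose (also 0 at an unadjusted limma p under 0.05), where 9.60% of genes tested fell and 9.60% rose, with a median of -1.09. Those 7 calls became 0 when either wild type array was left out, 3 when the variance trend was dropped, and 4 without knockout replicate 1 or without a filter.

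Of the related granule cargo, 3 of 3 genes fell on MG-U74A, against 30.2% of all genes tested. Pcsk1n, which encodes proSAAS, a granin-like inhibitor of the convertase made by Pcsk1, read 5706 and 5805 in wild type and 329.8 and 422 in knockout. It fell by 3.86 ± 0.12 (adjusted p = 2.02e-04), a larger change than that of any of the 9 genes on this array type. Nucb2, the precursor of nesfatin, fell by 0.57 ± 0.07, and the remaining gene Nucb1 by 0.25 ± 0.06 (adjusted p = 0.0349). Vgf, a neuroendocrine peptide precursor on MG-U74B, read 1023 and 1510.2 in wild type, and -469.7 and 71.3 in knockout. Vgf passed (adjusted p = 0.0180), but with 1 knockout array below 0 the size of its change, -4.69 ± 0.70, depends on the constant added.

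The other proprotein convertases, most of which act outside granules, gave 1 fall among 3 tested genes on MG-U74A, a share near the 30.2% of all genes tested. Mbtps1, a convertase of the Golgi, fell by 0.70 ± 0.06 (adjusted p = 0.00144). Furin, which cuts precursors in the trans-Golgi network, read 698 and 817 in wild type and 731 and 624 in knockout, with overlap (-0.16 ± 0.12, adjusted p = 0.324). Pcsk5 was at -0.09 ± 0.11 and did not pass, while Pcsk4, Pcsk6 and Pcsk7 were too low there to be tested. Pcsk6 fell by 2.65 ± 0.51 on MG-U74B (adjusted p = 0.0317), from 341 and 468 to 20.3 and 76.1, and was below 0 on all arrays of MG-U74A.

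Carboxypeptidases related to Cpe went both ways on MG-U74A, with 2 falls and 2 rises among 4 tested genes. Of all genes tested there, 30.2% fell and 22.7% rose. Cpd, which encodes a carboxypeptidase of the Golgi, fell by 0.88 ± 0.08 on MG-U74A and by 0.83 ± 0.12 on MG-U74B (adjusted p = 0.00179 and 0.0175). Cpn1, a plasma enzyme of liver type, fell by 2.56 ± 0.39 on MG-U74A, with 1 knockout array below 0, and was at -0.58 ± 0.28 on MG-U74B, where it did not pass. Cpm on MG-U74B, at -1.73 ± 0.79, did not pass either. Aebp1, a family member of connective tissue, rose by 2.89 ± 0.40 from 25.8 and -13.9 to 224 and 253. Cpxm1 rose by 1.55 ± 0.25, and both rises started from wild type values near 0, so that their size depends on the constant added. Neither rising gene was tested when the filter was set to 50% of the trimmed mean. Another probe set of Aebp1, on MG-U74B, was below 0 on all arrays and too low to be tested.

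For the modification of peptide ends, 1 of 3 tested genes fell on MG-U74A, again near the 30.2% of all genes. Pam, the enzyme that amidates peptide hormones, read 678 and 698 in wild type and 149.6 and 147 in knockout and fell by 2.04 ± 0.07 (adjusted p = 2.48e-04). The tyrosine sulfotransferase genes Tpst1 (-0.23 ± 0.12) and Tpst2 (-0.70 ± 0.29) did not pass. For each, both knockout arrays were below both wild type arrays, as for 45.3% of all genes tested.

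Genes of the granule membrane, its transport and acidification fell in 15 of 16 cases on MG-U74A, with a median of -1.01. Of these, 8 fell by at least 1 log2 unit. Of all genes tested there, 30.2% fell and 10.3% fell by at least 1 log2 unit. Cadps, a priming factor of granule release (-2.09 ± 0.25), and Cyb561, a granule membrane electron carrier (-2.07 ± 0.29), changed most. The remaining gene, Pick1, was at 0.14 ± 0.19 and overlapped between genotypes. All 8 tested subunits and accessory proteins of the proton pump, which keeps the granule acidic for the convertases and Cpe, fell, with changes from -0.23 (Atp6v1e1) to -1.07 (Atp6v1b2). On MG-U74B 4 of 8 fell, against 9.60% of all genes tested there. Of the 4, Rab27a, a GTPase of granule docking (-1.61 ± 0.14), and Rab3d (-1.26 ± 0.21) changed most. There Hid1 (-0.58 ± 0.24), Ica1 (-0.07 ± 0.48), Atp6v1b2 (-0.16 ± 0.21) and Atp6v1h (0.15 ± 0.65) did not pass, the last 3 on other probe sets than those that fell on MG-U74A.

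The hormones that these proteins store and process fell in 5 of 5 cases on MG-U74A, none by 1 log2 unit, with a median of -0.43. Of all genes tested there, 30.2% fell and 10.3% fell by at least 1 log2 unit. Ins2 (insulin) was at -0.27 ± 0.06, Ppy at -0.39 ± 0.06, Iapp at -0.43 ± 0.06, Sst at -0.84 ± 0.04 and Gcg (glucagon) at -0.88 ± 0.07, beside a range of -2.95 (Scg3) to -0.88 (Chgb) for the granins and processing genes that fell. Their wild type means were 17386 to 33859.5, a range in which a possible flattening of the signal was not tested. Pyy on MG-U74B read 29266 and 31140.2 in wild type and 34333 and 30630.3 in knockout, with overlap (0.10 ± 0.11, adjusted p = 0.547).

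**Figure D5:**
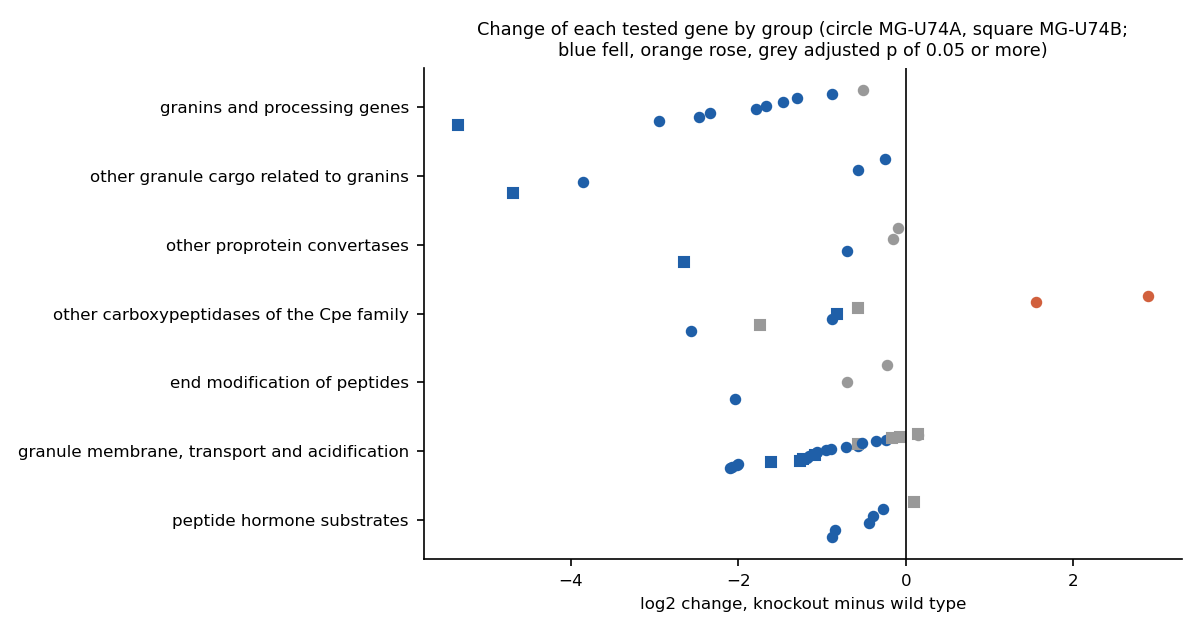
Log2 change (x axis, knockout minus wild type) of each tested gene of the group and of the 6 pathway lists (circles MG-U74A, squares MG-U74B; blue fell, orange rose, grey did not pass). Orange points occur in 1 list, the carboxypeptidases (Aebp1 at 2.89 and Cpxm1 at 1.55), and hormones lie between -0.88 and 0.10.

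The 5 genes whose pattern over the 4 MG-U74A arrays was most like the mean of the 9 were Agap1, Armc10, Nupr1, Tmem250-ps and Golim4. Likeness was the Euclidean distance between log2 values centred on the wild type mean, taken over 5698 other genes. The distances were 0.058, 0.062, 0.089, 0.107 and 0.116, beside a mean member change of -1.62 on knockout replicate 1 and -1.79 on replicate 2. Their changes lay between -1.74 (Tmem250-ps) and -1.65 (Golim4, a Golgi membrane protein). With 4 arrays in 2 genotypes, the measure mostly ranks genes by how close their change is to the members' mean.

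The arrays of the genotypes differed in other ways, and the part of these in the falls was not tested. The marker counts are from MG-U74A, where 30.2% of all genes tested fell and 22.7% rose. Markers of islet endocrine cells were present, with summed intensities of 113981 to 114493 in wild type and 77263 to 85284 in knockout (5 of 5 tested genes fell, none listed at 0). These are the same 5 hormone genes read above on MG-U74A, so the counts are not separate readings. A possible flattening of their signal was not tested. The endocrine sums differed less between genotypes than those of acinar cells, which surround the islets. Acinar genes fell in 8 of 8 cases, from sums of 39396 to 39694 to 4983 to 5593. Of lymphocyte markers 6 of 6 rose (3852 to 3896 against 19457 to 20549), with Cd2, Cd3e and Cd79a at or below 0 in wild type and Cd3e also in knockout. Macrophage and dendritic cell markers rose in 9 of 9 cases (4971 to 5141 against 17841 to 17999), with Itgam at or below 0 in wild type. The sums of both immune lists were thus higher on both knockout arrays than on both wild type arrays. A probe set of Adgre1, too low to be tested, was lower in knockout, and Cd3e on MG-U74B overlapped between genotypes. Fibroblast and stellate cell markers rose in 8 of 10 and fell in 1 (5835 to 5903 against 17744 to 18884), with Acta2 at or below 0 in wild type. Endothelial markers rose in 6 of 8 and fell in 1 (2096 to 2114 against 2646 to 2732). Duct markers fell in 3 of 6 and rose in 1 (6603 to 7006 against 3677 to 3779.5).

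Granins are also made outside islets, so markers of other granin-bearing cells were read on MG-U74A. Of all genes tested there, 30.2% fell and 22.7% rose. Nerve and Schwann cell markers rose in 0 of 7 tested cases and fell in 2, a share of falls near that of all genes. Their sums were 1304 to 1411 in wild type and 1284 to 1299 in knockout, with Nefm at or below 0 in both. On MG-U74B members of the list went both ways. There Nefm fell by 2.08 ± 0.45 (adjusted p = 0.0400), from 234 and 294 to 27.3 and 63.3, and Sox10 was higher in knockout without passing (876 and 943 against 1866 and 1281, adjusted p = 0.0711). Of catecholamine cell markers 0 of 2 passed, also at an unadjusted limma p under 0.05 (sums 1258 to 1692 and 1272 to 1477). Slc6a2 of that list was lower in knockout on both array types, at 113 and 114 against -0.2 and 22.2 on MG-U74A, where it was too low to be tested, and at 714 and 334 against 282 and 35.7 on MG-U74B (-1.92 ± 0.86, adjusted p = 0.189). Enteroendocrine markers rose in 2 of 4 and fell in 1 (1893 to 1939.6 against 2468 to 2575), with Cck at or below 0 in wild type. Gapdh has control probe sets at both ends of its transcript, and the quotient of the 3' over the 5' signal is lower where the labelled RNA is more complete. It was 3.15 and 3.22 in wild type against 0.949 and 0.937 in knockout on MG-U74A, and 3.07 and 3.12 against 0.900 and 0.914 on MG-U74B. The spiked control BioB averaged 171 and 195 in wild type and 4044 and 3596 in knockout on MG-U74A.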

How the data were processed

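The authors deposited linear intensities, 1 per probe set, already brought to a common level (trimmed mean without the outer 2% 250.2 for the A type and 250.1 for the B type, from the values). Their software: not given in the sources used here. Each array was rescaled to that mean, negative values became 0, and 10% of the mean was added before log2. Control probe sets and those with a mean under 62.5 (25% of it) were not tested, which left 7516 and 7861. Knockout was compared with wild type per array type with lmFit and eBayes with a variance trend (limma 3.58.1, R 4.3.3), two-sided. An exact permutation test of 2 against 2 arrays cannot go below 0.333, so p-values rest on pooled spread and measure differences between these arrays, which may be technical. The procedure was also run on simulated data, in which spreads were shuffled over probe sets, so the variance trend was not tested there. Changes were planted in that run only in probe sets well above the filter on low values. Gene names are those of the platform's annotation table, updated through GRCm38.p6 names.

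Members, lists and tests were chosen with earlier results of these data known. All members were named, and of each pathway list the 2 largest changes in each direction that passed, with others where 5 or fewer did not pass. Nucb1, Ins2, Ppy, Iapp, the proton pump genes, the marker genes and the untested genes named were outside this rule and were named after their values were seen. The number of arrays limits the precision. No replicate block was used, since the labels do not say that a replicate number is a shared animal or day. Same-numbered arrays did not deviate together (correlation of deviations 0.024 and 0.032). Genotypes were taken from the labels alone, since the knocked-out gene is not reported here. Alternatives changed the constant, filter, normalization, variance trend, block and arrays.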

Additional observations from a re-analysis of the deposited data

How the results depend on the processing

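On MG-U74A the 8 genes that fell were 8 in every alternative run, and 12 when every tested probe set was counted. With a replicate block, which paired arrays by their replicate number alone, 8 members still fell on MG-U74A, and Ptprn2 kept its fall on MG-U74B (adjusted p = 0.0155). Ptprn2 94708_at turned from -0.51 to 0.027 without knockout replicate 2, the range with an array left out being -0.56 to 0.027. It was under the filter, and so has no value, at 50% and without wild type replicate 2 or knockout replicate 1. On MG-U74B the member that fell, Ptprn2, was lost (0 of 1) with no filter and with no variance trend, and its count ranged from 0 to 1 with an array left out. All falls on MG-U74B, 697, became 432 with no filter, which adds probe sets to the adjustment, and 343 with no variance trend, and ranged from 0 to 646 with an array left out. All rises there, 675, became 332 and 295, and ranged from 1 to 288. Pathway falls there, 7, became 4 and 3, and ranged from 0 to 6. On MG-U74A all falls, 2178, ranged from 1141 to 2484 with an array left out. The 2 pathway rises became 0 with the filter at 50%, where neither gene was tested, and ranged from 1 to 2 with an array left out. Where no value is given beside a change, the cause was not tested. Quantile normalization moved the median change of all genes by 0.03 on MG-U74A and by -0.05 on MG-U74B. With an array left out, the lone array is assumed to vary like those of the other genotype. Low intensities limit Ptprn2 94708_at, the knockout values of Ptprn2 113747_at, Aebp1 and Cpxm1.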
